A study of Saccharomyces cerevisiae with 25 samples.

Results

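Yeast vacuoles hold proteases that break down proteins delivered from the cytosol, the endosome and autophagosomes, and the cytosol holds small proteins that inhibit them. The genes described here are 4 that encode vacuolar proteases (PEP4, PRB1, PRC1 and CPS1) and 2 that encode inhibitors (PAI3 and PBI2). They were taken by name from the deposited table, where all 6 were found among 6650 named entries. The study followed Saccharomyces cerevisiae through phosphate withdrawal by RNA sequencing. Cells grown with high phosphate gave 1 library at 0 min, and after a wash and a move to medium without phosphate 24 libraries were taken, 1 every 15 min from 15 to 360 min. Every library came from the same strain, in the BY4741 background, with genotype pho84pr-YFP (a yellow fluorescent protein reporter under the PHO84 promoter) and pho90_OX (overexpression of the phosphate transporter gene PHO90). No library came from a strain without the overexpression, so its part in any change below cannot be told apart. The sources used here give neither the promoter of the overexpression nor whether the libraries came from 1 culture. PHO90 itself had 1636 RPM (reads per 1000000 reads of the library) at 0 min and 2153 to 5413 RPM afterwards.

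Proteinase A, the aspartyl protease made from PEP4, starts the activation of other vacuolar enzymes by cutting their inactive precursors, and proteinase B, the subtilisin-like serine protease made from PRB1, carries that cascade on. Carboxypeptidase Y (PRC1) and carboxypeptidase S (CPS1) then remove amino acids from the carboxyl ends of peptides. The PAI3 product binds proteinase A and the PBI2 product binds proteinase B, and both inhibitors are cytosolic. These enzymes are best known for recycling proteins when cells run out of nitrogen or enter stationary phase.

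All 6 genes had a value in all 25 libraries. Levels are given in RPM, or as log2 RPM where stated. Time points were grouped into an early (15 to 120 min), a middle (135 to 240 min) and a late window (255 to 360 min) of 8 libraries each, which stand in for replicates. The p-values below therefore measure only the spread between time points of 1 course, and that spread includes any change inside a window. Libraries of 1 course share trends, and none of the tests below allows for this. A steady drift alone can therefore give a small p. In bulk RNA, fewer cells with a transcript and less of it per cell cannot be told apart. Depth was 450744 to 2271193 reads in listed genes, with a median of 1382080 in early, 1010602 in middle and 612972 in late libraries. Genes of ribosomal proteins took a share of reads with a median of 9.18% in the late window, against 34.3% in the early window, and the median tested gene was 0.45 higher (log2) late than early. The 5 marker genes of MATa cells, the mating type of BY4741, summed to between 2448 and 4542 RPM in every library. The 4 markers of MATalpha cells summed to at most 69.7 RPM.

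The largest folds were those of the 2 inhibitor genes. Late in the course PAI3 stood 12.2-fold and PBI2 4.30-fold above the early window, whereas PRB1 was 2.95-fold, PEP4 2.45-fold and PRC1 2.39-fold higher. CPS1, at 1.50-fold, did not reach the size needed for a call, an absolute log2 difference of at least 1 with a limma adjusted p under 0.05. So 5 of 6 genes were called higher late than early and 0 lower, where 13.8% of the 4343 tested genes were called higher and 3.41% lower. Ranked by this difference among the 4343 genes, PAI3 was at place 8, PBI2 at 65, PRB1 at 162, PEP4 at 285, PRC1 at 307 and CPS1 at 1642. The calls of PEP4 and PRC1 depended on the scale. With each library centred on the median of the tested genes, or with each level taken per read outside ribosomal protein genes (called the non-ribosomal scale below), PAI3, PBI2 and PRB1 were called and PEP4 and PRC1 were not. Over all tested genes, the 599 higher and 148 lower calls became 181 higher and 199 lower with centring, and 201 higher and 191 lower with the other scale.

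**Figure D1:**
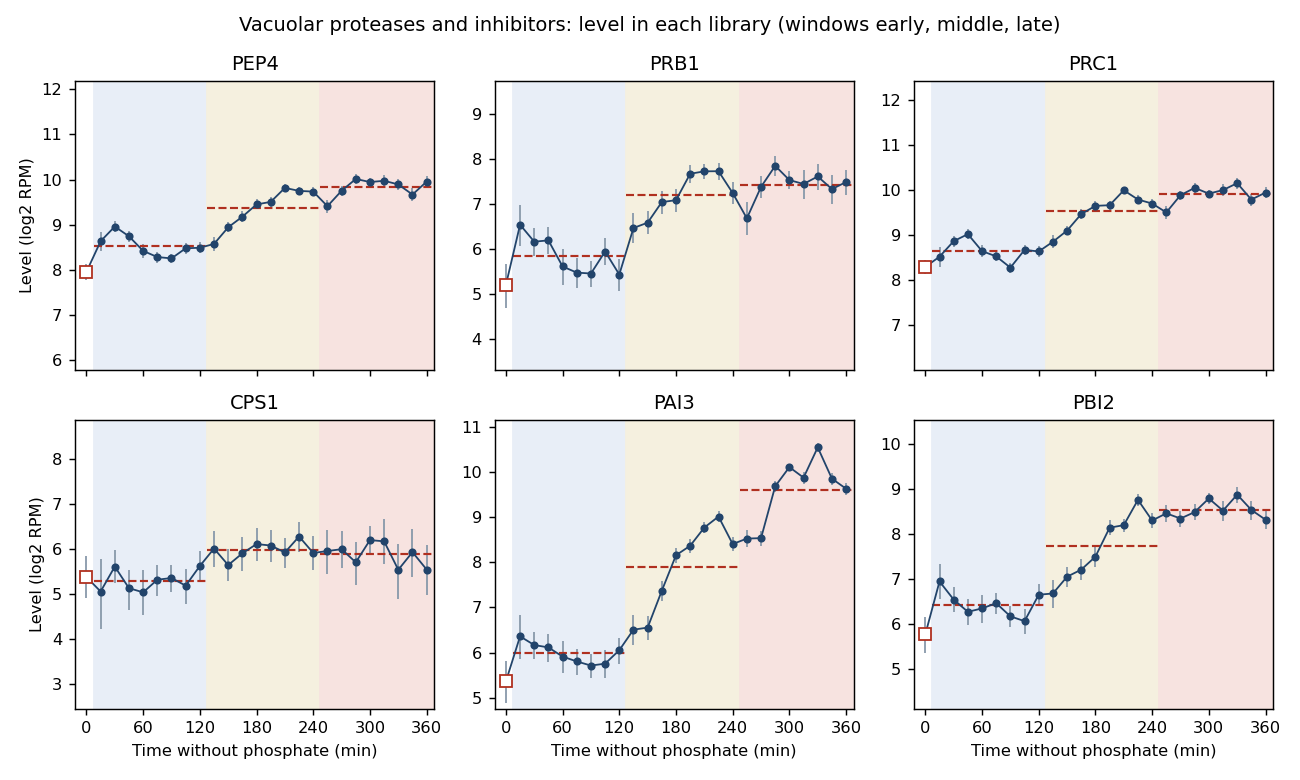
Level of each gene (log2 RPM, vertical axis, same span in every panel) against time without phosphate (min). Points are single libraries with exact Poisson 95% intervals (counting error only), the open square is the high-phosphate library at 0 min, shading marks the early, middle and late windows and dashed lines their means. PAI3 climbs furthest, to 1497 RPM at 330 min, and CPS1 stays between 32.9 and 77.5 RPM throughout.

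The stretches of DNA before the start codons are shown for both inhibitor genes and for PRB1, because the inhibitor genes had the largest folds and PBI2 is compared with PRB1 further down. Each is the 300 bases next to the start codon, read 5′ to 3′ on the gene's own strand from the RefSeq genome of build R64, the build named in the submitters' processing notes. Capitals mark AGGGG on either strand (CCCCT on the printed one), the core of the stress response element bound by Msn2 and Msn4. The windows were chrXIII:610366-610665 (minus strand) for PAI3, chrXIV:605084-605383 (plus strand) for PBI2 and chrV:41954-42253 (minus strand) for PRB1.
PAI3: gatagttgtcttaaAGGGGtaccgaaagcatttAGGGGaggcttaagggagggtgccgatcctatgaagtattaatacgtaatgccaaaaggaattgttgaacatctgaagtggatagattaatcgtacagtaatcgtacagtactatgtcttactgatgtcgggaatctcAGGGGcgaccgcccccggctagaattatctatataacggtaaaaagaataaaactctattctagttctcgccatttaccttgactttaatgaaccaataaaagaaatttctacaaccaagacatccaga
PBI2: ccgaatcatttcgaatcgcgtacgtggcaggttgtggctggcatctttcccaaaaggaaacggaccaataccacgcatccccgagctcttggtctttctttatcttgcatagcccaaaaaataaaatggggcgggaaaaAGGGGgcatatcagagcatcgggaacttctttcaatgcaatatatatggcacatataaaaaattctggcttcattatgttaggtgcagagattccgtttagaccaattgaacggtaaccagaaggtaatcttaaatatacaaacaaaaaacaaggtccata
PRB1: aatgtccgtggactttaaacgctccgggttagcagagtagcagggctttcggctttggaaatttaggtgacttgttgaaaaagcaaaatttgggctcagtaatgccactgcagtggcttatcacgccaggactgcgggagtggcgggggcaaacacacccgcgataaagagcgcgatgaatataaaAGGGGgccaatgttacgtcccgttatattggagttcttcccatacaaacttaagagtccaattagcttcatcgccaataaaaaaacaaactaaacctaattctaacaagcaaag
The window of PAI3 held 3 such matches, starting 286, 267 and 129 bases before the start codon. Of 6001 windows of the same length before protein-coding genes, 0.55% held 3 or more, 3.45% held 2 or more and 22.2% held at least 1. PBI2 and PRB1 had 1 match each, PRC1 had 2 and CPS1 had 1 in these 300 bases. The palindrome CACGTG, the high-affinity site of the phosphate regulator Pho4, was in none of the windows of these 5 genes, and 3.57% of all windows held it. These matches are letters in a window and no binding was measured.

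PAI3 (YMR174C, chromosome XIII, 610159 to 610365, minus strand) is a single coding exon of 207 bases with no overlapping annotated gene. It had 41 RPM at 0 min, with an exact Poisson interval of 29.3 to 55.9 RPM. In the early window it ranged from 52.4 RPM at 90 min to 82.1 RPM at 15 min, with a median of 63.3 RPM. The middle window ran from 90.9 RPM at 135 min to 517 RPM at 225 min (median 308 RPM), and the late window from 369 RPM at 255 min to 1497 RPM at 330 min (median 875 RPM). Every late and every middle library was above every early one. On the log2 scale the late window averaged 9.60 ± 0.72 and the early window 5.98 ± 0.23 (SD, n = 8 each), a difference of 3.61 (SE 0.33, limma adjusted p = 2.54e-09). It was also called higher late than middle, as was none of the other 5 genes, at 3.26-fold (log2 1.70, SE 0.33, limma adjusted p = 0.0014), where 0.714% of tested genes were called higher and 0.0921% lower. The 31 higher and 4 lower calls over all tested genes became 17 and 64 with centring and 20 and 21 on the non-ribosomal scale. PAI3 thus rose both early to middle and middle to late. Between its level of 517 RPM at 225 min and those of 824 to 1497 RPM from 285 to 330 min, the libraries at 240, 255 and 270 min had 339, 369 and 371 RPM.

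PAI3 lies between DDR48 (177 bases away, on the opposite strand with facing ends) and SIP18 (650 bases away, transcribed in the opposite direction from the shared upstream stretch). DDR48, a gene induced by DNA damage and other stress, had 1622 to 2013 RPM late and 493 to 1208 RPM early. SIP18, a desiccation-related gene, had 254 to 2000 RPM late and 34.3 to 59.9 RPM early, an 18.8-fold difference at place 2 of the 4343 genes. Both neighbours were called higher late than early on the deposited scale, DDR48 by 2.57-fold (log2 0.87 with libraries centred, under the size for a call). DDR48 and the entry YMR173W-A had almost equal levels, with a median ratio of 1.00 in both windows, and SIP18 and YMR175W-A, 58 bases apart, a median ratio of 1.07 late and 1.21 early. How reads were counted, and whether by strand, is not stated. Whether reads of DDR48 or SIP18 enter the value of PAI3, or whether entries of a pair share reads, was not tested.

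PBI2 (YNL015W, chromosome XIV, 605384 to 605611, plus strand), also a single coding exon, encodes the proteinase B inhibitor, which besides serves with thioredoxin in the fusion of vacuoles. It had 54.7 RPM at 0 min (Poisson interval 40.7 to 71.1 RPM). It ranged from 66.9 to 123 RPM in the early window (median 84.8 RPM), from 102 to 431 RPM in the middle window (median 231 RPM) and from 318 to 468 RPM in the late window (median 362 RPM). All 8 late libraries were above all 8 early ones, and the late libraries lay close together. The log2 level averaged 8.54 ± 0.20 late and 6.43 ± 0.28 early (SD, n = 8 each), a difference of 2.10 (SE 0.21, limma adjusted p = 4.92e-09). The rise was already called by the middle window, at 2.45-fold (limma adjusted p = 2.59e-05), but not on the non-ribosomal scale (log2 0.96, limma adjusted p = 0.000225). Late minus middle, PBI2 differed by 0.81 (log2, SE 0.21, limma adjusted p = 0.00926) and was not called. Its reads were whole numbers in 1 of 25 libraries, and how the fractions arose is not stated.

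PRB1 (YEL060C, chromosome V, 40046 to 41953, minus strand), the proteinase B gene, had the highest fold of the 4 protease genes, though its interval overlapped with that of PEP4 (0.99 to 1.60 on the log2 scale, against 1.16 to 1.96 for PRB1). Its level was 36.9 RPM at 0 min (Poisson interval 25.9 to 51.1 RPM), 43.4 to 93.2 RPM in the early window (median 55.4 RPM), 88.6 to 212 RPM in the middle window (median 144 RPM) and 103 to 230 RPM in the late window (median 177 RPM). The late and early libraries did not overlap in RPM, but the gap was narrow, between 103 RPM at 255 min and 93.2 RPM at 15 min, and they overlapped on both other scales. The log2 level averaged 7.41 ± 0.34 late and 5.86 ± 0.42 early (SD, n = 8 each), a difference of 1.56 (SE 0.19, limma adjusted p = 1.04e-07). Most of this stood by the middle window, at 2.53-fold above early (limma adjusted p = 6.89e-06). Late minus middle the difference was 0.22 (95% interval -0.18 to 0.62, limma adjusted p = 0.405).

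PEP4 (YPL154C, chromosome XVI, 259714 to 260931, minus strand) and PRC1 (YMR297W, chromosome XIII, 861922 to 863520, plus strand) followed nearly the same course. PEP4 had 248 RPM at 0 min, 305 to 498 RPM in the early window (median 358 RPM), 381 to 901 RPM in the middle window (median 713 RPM) and 680 to 1034 RPM in the late window (median 969 RPM). PRC1 had 313 RPM at 0 min, 310 to 518 RPM early (median 398 RPM), 460 to 1015 RPM in the middle window (median 804 RPM) and 723 to 1133 RPM late (median 973 RPM). In both genes every late library was above every early one in RPM, while middle libraries overlapped with both. PEP4 differed by 1.29 late minus early (log2, SE 0.15, limma adjusted p = 1.5e-08), with 9.83 ± 0.21 late and 8.53 ± 0.24 early (SD, n = 8 each). PRC1 differed by 1.26 (log2, SE 0.14, limma adjusted p = 6.18e-09), with 9.90 ± 0.20 late and 8.64 ± 0.22 early (SD, n = 8 each). With libraries centred on their median these differences were 0.81 and 0.77, and on the non-ribosomal scale 0.83 and 0.79, under the size for a call with limma adjusted p of at most 1.56e-05. By the middle window PEP4 was 0.84 and PRC1 0.88 higher than early (log2), and neither was called.

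CPS1 (YJL172W, chromosome X, 97737 to 99467, plus strand) encodes a zinc carboxypeptidase that reaches the vacuole through multivesicular bodies. It had the smallest late minus early difference of the 6 and few reads, between 15 in the 15 min library and 93 in the 90 min library. Its level was 41.5 RPM at 0 min, 32.9 to 49.3 RPM in the early window (median 38.1 RPM), 50 to 77.5 RPM in the middle window (median 62.5 RPM) and 46.5 to 73.3 RPM in the late window (median 61.5 RPM). Late and early libraries overlapped, whereas every middle library was above every early one on the deposited scale. That gap was narrow and inside counting error. It lay between 50 RPM at 150 min (Poisson interval 39 to 63.9 RPM) and 49.3 RPM at 120 min (38.8 to 61.8 RPM). Late minus early the difference was 0.59 (log2, SE 0.12, limma adjusted p = 9.71e-05), below the size for a call. With libraries centred on their median it was 0.10 (95% interval -0.17 to 0.38, limma adjusted p = 0.558). Of its 25 values 11 were whole reads. The counting interval of 1 late library was wide, from 29.8 to 69.1 RPM at 330 min. At 15 min CPS1 was at the lowest listed value of that library, 33.3 RPM. In the late libraries the lowest listed value lay between 13.1 RPM at 300 min and 30.4 RPM at 315 min.

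By the middle window 3 of 6 genes (PAI3, PBI2 and PRB1) were called higher and 0 lower than early, where 4.51% of tested genes were called higher and 2.81% lower. Over all tested genes the 196 higher and 122 lower calls became 104 and 158 with centring and 88 and 172 on the non-ribosomal scale. Late and early libraries did not overlap for 5 of 6, where the late libraries were all above the early ones for 25.5% of the 3275 tested genes with a value in all 24 libraries without phosphate. This too depended on the scale. With libraries centred, 2 of 6 did not overlap (PAI3 and PBI2), beside 6.96% of the 3275 genes, and on the non-ribosomal scale 4 of 6 (those 2, PEP4 and PRC1), beside 6.93%. For middle and early, on the deposited scale, this held for PAI3 and, by a narrow gap, CPS1, and for 7.45% of those 3275 genes. For late and middle it held for 0 of the 6 genes and 1.1% of the 3275. The interval of the late minus early difference of PAI3, 2.93 to 4.30, lay above those of the 4 protease genes. The interval of PBI2, 1.67 to 2.54, overlapped with that of PRB1, 1.16 to 1.96.

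**Figure D2:**
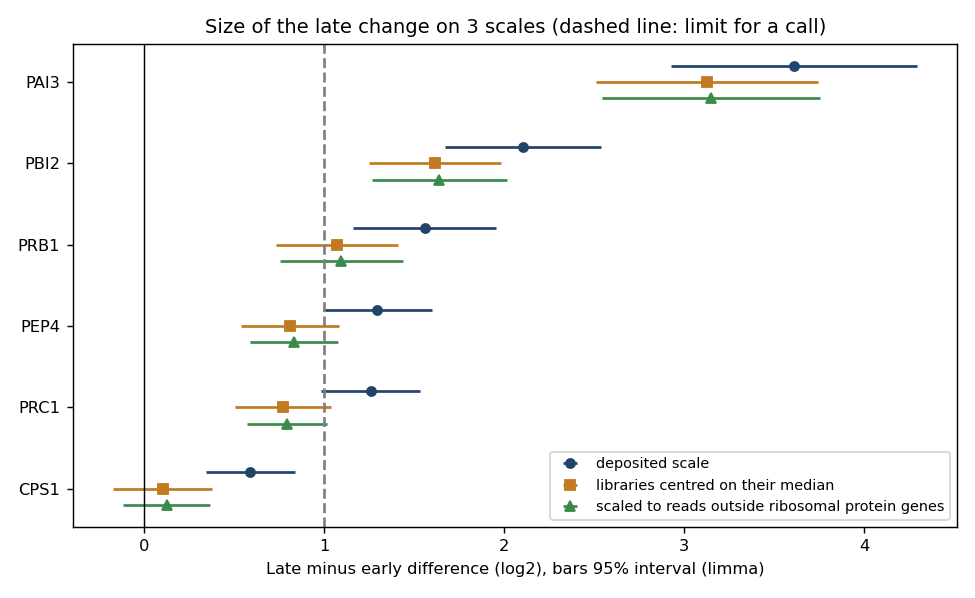
Late minus early difference (log2, horizontal axis) of each gene with its 95% limma interval, on the deposited scale (circles), with libraries centred on their median (squares) and on the non-ribosomal scale (triangles). PAI3 is above 3 on all 3 scales, whereas PEP4 and PRC1 pass the dashed limit of 1 only on the deposited scale and CPS1 on none.

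The ratio of an inhibitor's RPM to that of the protease it binds is taken within a library and so does not depend on how libraries are scaled. PAI3 over PEP4 ranged from 0.430 to 1.57 in the late window (median 0.867) and from 0.144 to 0.207 in the early window (median 0.174), with no overlap. At 0 min it was 0.165. The late ratio was 4.99-fold above the early one (log2 2.32, exact permutation test over libraries, two-sided, p = 0.000155, the smallest p that 8 against 8 allows, adjusted p = 0.0014 over 9 tests of ratios). The middle ratio, 0.191 to 0.601, was 2.10-fold above the early one (exact permutation adjusted p = 0.0014), and the late ratio 2.37-fold above the middle one (exact permutation adjusted p = 0.00308). PAI3 transcripts thus gained on PEP4 transcripts in both steps. The RPM of PAI3 exceeded that of PEP4 at 300, 330 and 345 min, with no allowance for coding lengths of 207 and 1218 bases. In RPM per kb of coding sequence, PAI3 was above PEP4 in 5 of 8 libraries already in the early window.

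PBI2 over PRB1 had a smaller difference. The ratio ranged from 1.55 to 3.41 late (median 2.20) and from 1.05 to 2.32 early (median 1.48), with overlap, and was 1.48 at 0 min. The late maximum was at 255 min, where PRB1 had its lowest late level, and the next highest late ratio was 2.39 at 330 min. The late ratio was 1.46-fold above the early one (log2 0.54, exact permutation adjusted p = 0.0158). Leaving out any 1 library gave log2 differences of 0.45 to 0.64. Late minus middle it was 1.50-fold higher (exact permutation adjusted p = 0.00699). Middle minus early the log2 difference was -0.04 (exact permutation adjusted p = 0.799), and it turned to 0.0049 with 10 RPM added to each value.

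Carboxypeptidase Y has an inhibitor too, encoded by TFS1 (YLR178C), which was not among the 6 genes. TFS1 was 5.56-fold higher late than early (log2 2.48, SE 0.28, limma adjusted p = 4.07e-08), with 261 to 729 RPM late and 57.2 to 186 RPM early. TFS1 over PRC1 was 0.297 to 0.692 late (median 0.587) and 0.176 to 0.509 early (median 0.200), a 2.33-fold difference (log2 1.22, exact permutation adjusted p = 0.00186). That rise was in place by the middle window, at 2.04-fold over early (exact permutation adjusted p = 0.00308). Late minus middle the log2 difference was 0.19 (exact permutation adjusted p = 0.379). YLR179C, a neighbouring gene whose product resembles Tfs1, differed by -0.30 late minus early (log2, limma adjusted p = 0.00441) and was not called.

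**Figure D3:**
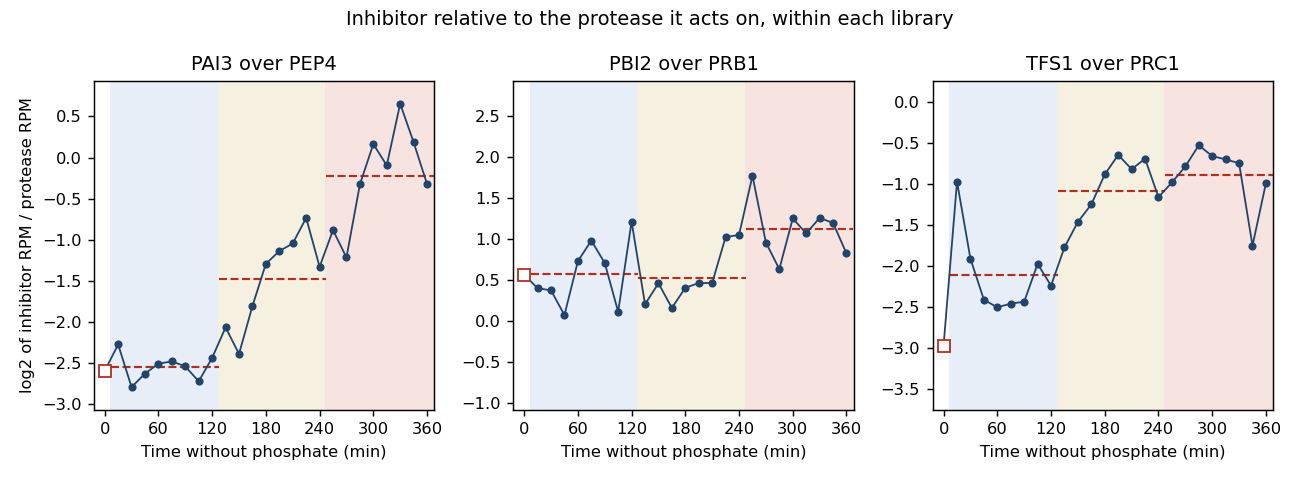
Inhibitor RPM over protease RPM within each library (log2, vertical axis, same span in every panel) against time without phosphate (min), with the 0 min library as an open square, windows shaded and window means dashed. PAI3 over PEP4 stays near its 0 min value of 0.165 through the early window and ends between 0.430 and 1.57 in the late window, while PBI2 over PRB1 overlaps between windows.

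The highest of the libraries at 15, 30 and 45 min was above the 0 min value for each of the 6 genes. The share of all tested genes for which this held is not given here. PRB1 stood at 93.2 RPM at 15 min, 71.8 RPM at 30 min and 73.3 RPM at 45 min, against 36.9 RPM at 0 min, and was at 44 RPM by 90 min. PEP4 peaked early at 498 RPM at 30 min (Poisson interval 459 to 539 RPM), against 248 RPM at 0 min (218 to 282 RPM), and was at 305 RPM at 90 min (283 to 329 RPM). PRC1 peaked at 518 RPM at 45 min and was at 310 RPM at 90 min, against 313 RPM at 0 min. PAI3 and PBI2 were highest of the early window at 15 min, at 82.1 and 123 RPM. CPS1 had 33.3 RPM at 15 min, the lowest listed value of that library, 48.8 RPM at 30 min and 35 RPM at 45 min. With 41.5 RPM at 0 min, CPS1 was thus above its 0 min value at 30 min only of these times. The median step of the tested genes from 0 to 15 min was 0.21 (log2). With 1 library at 0 min this difference has no replicate check, and the wash and the loss of phosphate cannot be told apart. The 15 min library was also the shallowest.

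The later increase was dated by the time at which a running median of 3 time points first passed the midpoint, on the log2 scale, between the 0 min level and the highest smoothed level. PRB1 passed it at 135 min, CPS1 at 142 min, PEP4 at 151 min, PRC1 at 152 min, PBI2 at 169 min and PAI3 at 172 min. TFS1 passed at 141 min. Leaving out any single library kept PRB1 between 134 and 144 min, PEP4 between 151 and 154 min, PRC1 between 149 and 153 min, PBI2 between 160 and 169 min and PAI3 between 170 and 176 min, and differences under the 15 min between libraries are not resolved. CPS1 ranged from 128 to 157 min, so its place in this order is not fixed. PRB1 without smoothing passed at 14.8 min and PEP4 with libraries centred at 29.6 min, both within the first 45 min described above. PRB1 had 212 RPM at 225 min, 152 RPM at 240 min, 103 RPM at 255 min and 230 RPM at 285 min. All 6 genes had a lower level at 240 than at 225 min, while the median step of the tested genes was 0.04 (log2). It was the only step between neighbouring time points in which all 6 fell, and the share of tested genes that fell is not given here.

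The courses were compared by Pearson correlation over the 24 libraries without phosphate, each centred on the median gene, as a description without a test, since libraries of 1 course share their trends. PEP4 and PRC1 correlated at 0.96, and each was the gene at place 2 most like the other among all tested genes. The gene most like both was APE3, which encodes the vacuolar aminopeptidase Y (0.97 with PEP4 and 0.98 with PRC1). The third for PEP4 was the dihydroxyacetone kinase gene DAK1 (0.96) and for PRC1 the mitochondrial porin gene POR1 (0.96). PRB1 was most like DCS2 and GOR1 (0.95 each) and TFS1 (0.94). PAI3 was most like FMP16, the small heat shock protein gene HSP26 and DDR2 (0.99 each), and PBI2 most like HOR7, HSP26 and GPG1 (0.97 each). The inhibitor genes correlated at 0.95 with each other, at place 26 of the genes most like PAI3. CPS1 stood apart, with 0.12 to 0.33 against the other 5 genes, and the closest genes to it were CMD1 (0.77), SPO73 (0.76) and TMN2 (0.73 over the 20 libraries that list it). On the deposited scale its correlations with the other 5 were 0.64 to 0.70.

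Transcript levels can be set side by side between genes only per length. In RPM per kb of coding sequence the late window averaged 4121 ± 1791 for PAI3, 1641 ± 233 for PBI2, 752 ± 99.4 for PEP4, 602 ± 76.8 for PRC1, 91.4 ± 18.9 for PRB1 and 34.5 ± 6.02 for CPS1 (SD, n = 8 each). In the early window it was 385 ± 79.1 for PBI2, 309 ± 49.6 for PAI3, 308 ± 52.8 for PEP4, 252 ± 39.8 for PRC1, 31.5 ± 9.51 for PRB1 and 22.9 ± 3.76 for CPS1. Within each late library this order held for every pair of neighbours in 8 of 8 libraries, with PEP4 1.10 to 1.34 times PRC1. Early, PBI2 was above PAI3, PEP4 above PRC1 and PRC1 above PRB1 in 8 of 8 libraries, whereas PAI3 was above PEP4 in 5 of 8 and PRB1 above CPS1 in 6 of 8. Whether reads were spread over whole transcripts or gathered at their ends is not stated, and with reads at the ends this scale would overstate the short inhibitor genes.

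Of 11 other vacuolar hydrolase genes 10 were tested, and on the deposited scale 8 of 10 were called higher late than early and 0 lower, where 13.8% of all tested genes were called higher. The median difference was 1.32 (log2), beside 0.45 for all tested genes. AMS1, the vacuolar alpha-mannosidase gene, was 4.95-fold higher (log2 2.31, SE 0.22, limma adjusted p = 2.52e-09) over the 22 libraries that list it. Its 7 early values were low, at 11.2 to 21.7 RPM. PHO8, the vacuolar alkaline phosphatase gene of the phosphate regulon, whose product is activated by proteinase A, was 3.79-fold higher (limma adjusted p = 5.55e-12), with 39 RPM at 0 min, 64.5 to 114 RPM early and 271 to 419 RPM late. The vacuolar RNase gene RNY1 was 3.61-fold, the acid trehalase gene ATH1 3.22-fold and the aminopeptidase I gene LAP4 2.77-fold higher, with ATH1 listed in 23 of the 24 libraries. DAP2 (dipeptidyl aminopeptidase B), YBR139W (ATG42, a carboxypeptidase related to carboxypeptidase Y) and APE3 were higher by 2.25-fold, 2.21-fold and 2.18-fold. YHR113W (APE4) differed by 0.82 and YBR074W (PFF1) by 0.37 (log2), neither called, and ATG15 had no value in any library. Centred on the median, 4 of 10 were called (AMS1, PHO8, RNY1 and ATH1), beside 181 of all 4343 tested genes, and LAP4 joined them on the non-ribosomal scale.

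Over all tested genes 13.8% were called higher late than early and 3.41% lower on the deposited scale, with a median difference of 0.45 (log2). Of 15 listed genes for sorting and delivery to the vacuole, 11 were tested, and 3 were called higher and 0 lower (median log2 difference 0.88). The 3 were ATG34 (4.06-fold) and ATG19 (3.60-fold), receptors that bring alpha-mannosidase and aminopeptidase I to the vacuole, and ATG11 (2.23-fold), their adaptor. ATG34 and ATG11 were listed in 22 libraries, and the 7 early values of ATG34 were low, at 10.1 to 21.7 RPM. ATG11 was not called with libraries centred or on the non-ribosomal scale, and without the 15, 345 and 360 min libraries the syntaxin gene PEP12 (log2 0.89 with them) was called as well. Of 11 genes for proteases of other compartments 7 were tested, and 1 was higher, the yapsin gene YPS6 (3.41-fold, listed in 20 libraries). In the early window 5 libraries listed YPS6, at 11.8 to 14 RPM, near their lowest listed values. Early libraries that do not list YPS6 do not enter its fold. With 0 lower and a median of 0.55 (log2) on the deposited scale, the list of other compartments was close to all tested genes in median. YPS6 was also called with libraries centred and on the non-ribosomal scale, where 181 and 201 of the 4343 tested genes were called higher. Of 3 cytosolic aminopeptidase genes 1 was higher, LAP3 (2.04-fold), and it was not called on either of the other scales or without those 3 libraries. Differences between these lists were not tested.

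**Figure D4:**
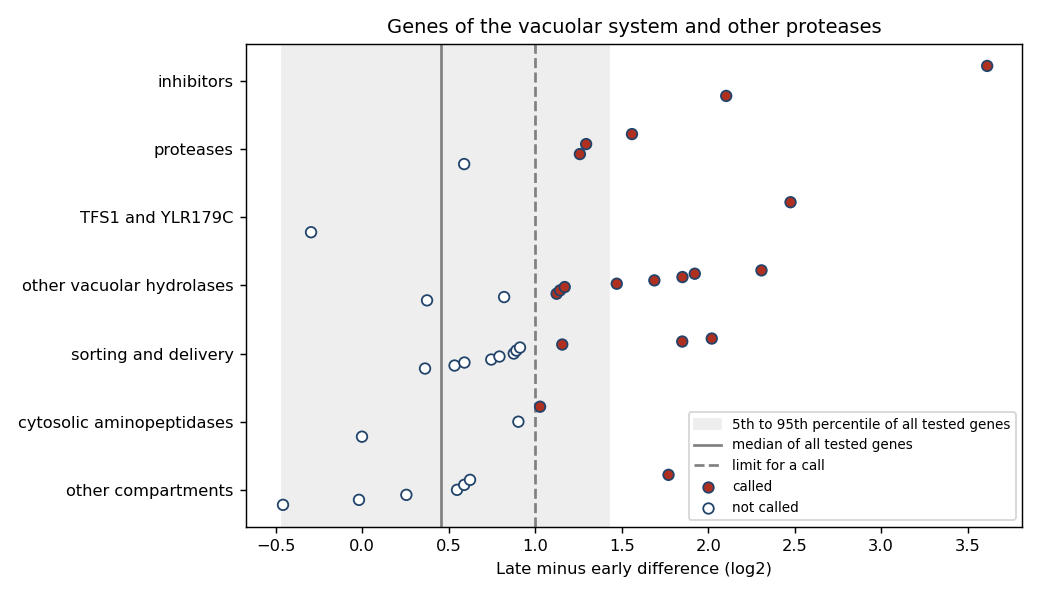
Late minus early difference (log2, horizontal axis) of every tested gene in the lists, with called genes filled, uncalled genes open, the median of all tested genes as a solid line and their 5th to 95th percentile as a grey band. PAI3 (3.61), PBI2 (2.10), PRB1 (1.56), TFS1 (2.48) and 5 of the other vacuolar hydrolases lie to the right of the band, which ends at 1.42. So do ATG34 (2.02) and ATG19 (1.85) of the sorting list and YPS6 (1.77) of the other compartments.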

How the data were processed

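Total RNA of 25 libraries, 1 per time point, was sequenced on an Illumina instrument, per the labels' protocols. Bowtie and build R64 are named in the submitters' processing notes. The deposited table holds log2 values that, raised from the log2 scale, sum to 1000000 per library, so they are log2 RPM. The series' text speaks of normalization to the first time point, which these values do not show. The lowest value of each library was taken as 15 reads, which made 93.6% to 94.4% of values whole reads (tolerance 0.02 reads) and gave depth and Poisson intervals; these cover counting error only. With the remaining values not whole, no count model was run.

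Windows were compared with limma 3.58.1 (trend, robust, R 4.3.3) on log2 RPM for the 4343 genes listed in at least 20 of the 24 libraries without phosphate, leaving out genes with 1 value in over 0.5 of them, with Benjamini-Hochberg adjustment. Inhibitor to protease ratios were tested by exact permutation over libraries. The script was tested on simulated data. The simulated noise was independent between libraries, so dependence between neighbouring time points was not covered. Named genes were the 6 genes, every listed vacuolar hydrolase and inhibitor, up to 3 called genes of each other list with the largest late minus early difference, and for each of the 6 the 3 genes with the most similar course. DDR48, SIP18 and their partners, PHO90, PEP12 and the other genes given for timing were outside this rule, and were chosen with their values known. The 6 genes and all lists were chosen with earlier results of these data known. Table entries with no name (51) held no value. Python 3.11.15, numpy 2.4.6, pandas 2.3.3, scipy 1.17.1 and matplotlib 3.10.9 were used. Alternatives were other scales, 10 RPM added, other filters and windows, and each library left out. The stretch before the start codon of PEP4 is not reported here.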

Additional observations from a re-analysis of the deposited data

Results flagged for a closer look

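Within windows of 8 libraries, 30 sets of values (the 6 genes, TFS1 and 3 ratios in each window) were searched for a library far from the others, and 3 were found. Chance marks about 1 in 20 such sets. The late PRB1 level was lowest at 255 min, with a log2 RPM of 6.683, whereas the other late libraries had 7.33 to 7.85. The log2 ratio of TFS1 over PRC1 was highest at 15 min in the early window, at -0.974, with the others between -2.50 and -1.91. The same ratio was lowest at 345 min in the late window, at -1.752, with the others between -0.99 and -0.53. Without the 15, 345 and 360 min libraries the late minus early difference of that ratio was 1.54 (log2).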

How the results depend on the processing

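Late minus early, the 5 calls among the 6 genes were kept whichever of the 24 libraries was left out, and became 3 with libraries centred on their median and 3 on the scale of reads outside ribosomal protein genes. In a comparison chosen after seeing the data, late and early libraries did not overlap for 5 of the 6 genes, for 2 with centring and for 4 outside ribosomal protein genes. Over all tested genes, calls higher late than early were 599, and 181 with centring, 201 outside ribosomal protein genes, 378 with 10 RPM added and 388 among the 3275 genes listed in all 24 libraries. Calls higher in the middle than in the early window were 196, and 104 with centring and 88 outside ribosomal protein genes. Late minus middle, the 31 higher calls became 17 with centring, 20 outside ribosomal protein genes and 18 with 10 RPM added, and ranged from 20 to 43 when 1 library was left out, with 20 without the 135 min or the 150 min library. The 4 lower calls became 64 with centring, 21 outside ribosomal protein genes and 18 without the 15, 345 and 360 min libraries. They ranged from 3 to 15 when 1 library was left out, with 14, 15, 8 and 9 without the libraries at 210, 225, 240 and 255 min. Late minus middle, PRB1 turned to -0.020 with centring. The middle minus early ratio of PBI2 over PRB1 turned to 0.0049 with 10 RPM added, and ranged from -0.12 to 0.046 (log2) when 1 library was left out, turning positive without the 75, 120, 135 or 165 min library. The midpoint time became 29.6 min for PEP4 and 117 min for CPS1 with centring, and 14.8 min for PRB1 and 14.2 min for TFS1 without smoothing. The cause of these changes was not tested, except that fewer genes were tested in the count of 388. No paired analysis was possible because the numbers of the libraries only name time points of 1 course. CPS1 had 15 to 93 reads per library, with both ends lower than for any other of the 6 genes, so its counting error was large. Its late minus early SE, 0.12, was still the smallest of the 6. The late libraries were the shallowest on average. Changes between a time point and 0 min rest on 1 library there.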

Other observations

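Genes listed for comparison of timing moved as follows. Of 6 genes of the phosphate regulon 5 were called higher late than early (median log2 difference 2.34), and 6 of 6 were called higher in the middle than in the early window. Over all tested genes 13.8% were called higher late than early (median log2 difference 0.45) and 4.51% higher in the middle than in the early window. With libraries centred, 181 of the 4343 tested genes were called higher late than early and 104 higher in the middle than early. On the scale of reads outside ribosomal protein genes these were 201 and 88. On both of these scales 4 of the 6 phosphate regulon genes were called in both comparisons. Their midpoints were passed at 37.5 min (VTC3), 43.0 min (SPL2), 50.2 min (PHO84), 101 min (PHO89), 108 min (PHO5) and 127 min (PHM8). Of 6 stress genes under Msn2 and Msn4, 5 were called higher late than early (median log2 difference 3.46), beside the same 13.8%. On the other scales, where 181 and 201 of the 4343 genes were called higher late than early, 5 of these 6 were called as well. Their midpoints were passed at 155 min (GPH1), 161 min (DDR2), 169 min (HSP12), 171 min (HSP26), 177 min (CTT1) and 10.9 min (TPS2), where leaving out a library moved TPS2 to as late as 28.5 min. No difference in time between these genes and the vacuolar ones was tested.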
